A study of Mus musculus with 4 samples.

Results

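This is an account, gene by gene, of how the effect of losing the zinc transporter Zip7 differed between 2 sorted fractions of mouse small intestinal crypt cells. For each gene the difference between Zip7 knockout (KO) and control (CTL) in the fraction labelled Lgr5-Hi was taken, and the same difference in the fraction labelled Lgr5-Mid was subtracted from it. The result, here the difference of differences, is on the log2 scale: a value of 1 means that the KO to CTL ratio was 2 times as large in Lgr5-Hi as in Lgr5-Mid, and a negative value that it was smaller. All 4 arrays of the series enter it. It was computed for 12426 analysed genes of 19938 genes with a probe set of their own among 35557 probe sets. The others were 1205 receptor genes that gut cells do not normally use, and 6307 genes that were on no array above the floor, the level below which 95% of those receptor genes lay (6.24 for CTL Lgr5-Hi, 6.17 for KO Lgr5-Hi, 6.10 for CTL Lgr5-Mid and 6.15 for KO Lgr5-Mid).

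RNA came from crypt cells of adult mice sorted by fluorescence for their Lgr5 reporter and was measured on Affymetrix arrays. The CTL mice were Zip7flox/+ and the KO mice Zip7flox/flox; both carried villin-CreERT2 and Lgr5-EGFP-ires-CreERT2, and both were given tamoxifen for 2 days. The villin promoter drives the recombinase in the intestinal epithelium, and Lgr5-EGFP-ires-CreERT2 brings a further tamoxifen-dependent recombinase to the cells that carry the reporter, so the controls, too, are made to lose a copy of Zip7 and are not wild type. The titles call the fraction sorted as lower Lgr5-Mid, the name used here, while other labels call it Lgr5-Med. Each of the 4 groups, CTL Lgr5-Hi, KO Lgr5-Hi, CTL Lgr5-Mid and KO Lgr5-Mid, is 1 array. The labels used here do not say how many mice each array stands for, nor whether the fractions of a genotype came from the same mice.

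Zip7, encoded by Slc39a7, releases zinc from the endoplasmic reticulum (ER) and Golgi into the cytosol. When folding in the ER fails, the sensors Ire1, Perk and Atf6 start the unfolded protein response, which raises ER chaperones and degradation factors, and through Perk and Atf4 the integrated stress response. Crypts hold Lgr5-positive stem cells at their base beside Paneth cells, and dividing progenitors above them that give rise to absorptive enterocytes and to goblet, enteroendocrine and tuft cells.

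With 1 array in each group there is no replicate error, so nothing here was tested and every difference is a description of these 4 arrays; their number limits the precision. The closest thing to a yardstick in the data was the spread over 1205 genes for receptors of smell, pheromones and trace amines. Their difference of differences had a median of -0.12 and an SD of 0.241. Their median level was 4.79, below the floor. This SD therefore describes background signal, and not the error of expressed genes or the spread between mice. Pearson correlations between arrays over all probe sets ran from 0.983 to 0.990. Epithelial markers were high on all 4 arrays, Epcam at 11.57, 11.62, 11.59 and 11.66 in the order CTL Lgr5-Hi, KO Lgr5-Hi, CTL Lgr5-Mid and KO Lgr5-Mid, the order in which 4 values are given throughout. The targeted gene Slc39a7 read 8.92, 9.02, 8.61 and 8.22, so it was not lower in KO Lgr5-Hi, and no label or table used here says whether its probes lie in the deleted exons. The genotypes differ in sex, since Xist was high on the CTL arrays and the Y-linked Eif2s3y on the KO arrays. A genotype difference that is the same in both fractions cancels in the difference of differences. A sex difference that varies between the fractions would not cancel. Xist came to 0.37 and Eif2s3y to 0.14. Each was above the floor on only 2 arrays, and with the other arrays raised to it the values were 0.22 and -0.14.

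The fraction labels need a caution that bears on every sign below. Lgr5 itself read 7.79, 7.93, 10.97 and 11.24, so its RNA was lower on both arrays labelled Lgr5-Hi than on both labelled Lgr5-Mid. The Lgr5 stem cell signature went the same way, with a mean level over its 29 analysed genes of 8.98, 8.89, 10.17 and 10.21. The labels are kept as given. If the fraction labels were exchanged in both genotypes, every difference of differences would change its sign and keep its size.

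Across the analysed genes the difference of differences had a median of 0.05 and an SD of 0.243, and percentiles 5 and 95 were -0.32 and 0.46. It was above 0 in 7437 genes (59.9%). At or above 1 stood 40 genes (0.322%), and at or below -1 stood 4 (0.0322%). At the smaller size of 0.5 the counts were 467 (3.76%) and 152 (1.22%). Among the receptor genes 0 were at or above 1 and 4 at or below -1, while 7 (0.581%) were at or above 0.5 and 75 (6.22%) at or below -0.5. The share past -0.5 was thus larger among receptor genes than among analysed genes, and the share past 0.5 smaller.

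The balance of signs moved with signal level and with scaling. In the 3107 genes with the lowest mean level the median was -0.06, with 72 genes at or above 0.5 and 98 at or below -0.5. In as many genes with the highest level the median was 0.08, with 122 and 5. Centring each array on its median lowered every value by 0.112, and of the genes past 0.5 in either direction the higher share was 75.4% as deposited and 40.8% after centring. The part of these level and scaling differences in the signs was not tested, so small values of either sign are given below as values only.

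**Figure D1:**
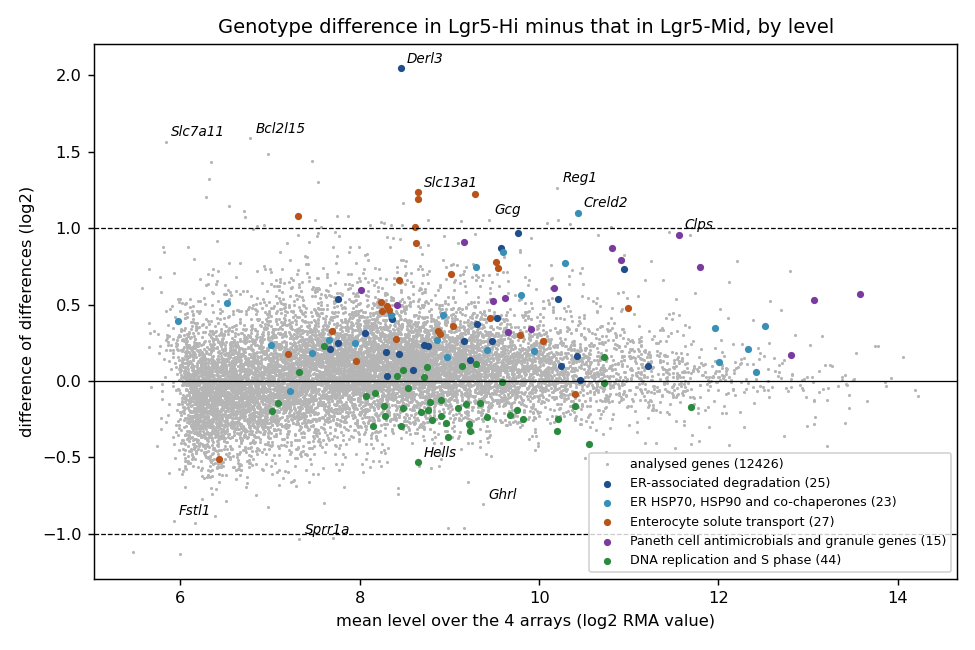
Difference of differences (log2, vertical) against mean level over the 4 arrays (log2, horizontal) for 12426 analysed genes, with 5 gene lists in colour and dashed lines at 1 and -1. Derl3 stands alone at 2.04, Paneth and solute transport genes lie mostly above 0, S phase genes mostly below 0, and the spread is widest at low levels.

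Which array carried a large value differed between genes. An array is said here to stand apart when its gap to the nearest other array is wider than the range of the other 3. Of the 467 genes at or above 0.5, KO Lgr5-Hi stood apart as the highest in 113 (24.2%) and KO Lgr5-Mid stood apart as the lowest in 129 (27.6%). The other arrays that can stand apart at such values did so less often, CTL Lgr5-Hi as the lowest in 17 and CTL Lgr5-Mid as the highest in 26. Over all analysed genes KO Lgr5-Hi stood apart as the highest in 972 (7.82%) and KO Lgr5-Mid as the lowest in 1079 (8.68%); since the size of the value partly fixes which array can stand apart, the shares are a description. The gene lists divided along the same line: stress genes of the ER were mostly highest in KO Lgr5-Hi, and enterocyte and Paneth genes were mostly lowest in KO Lgr5-Mid.

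**Figure D2:**
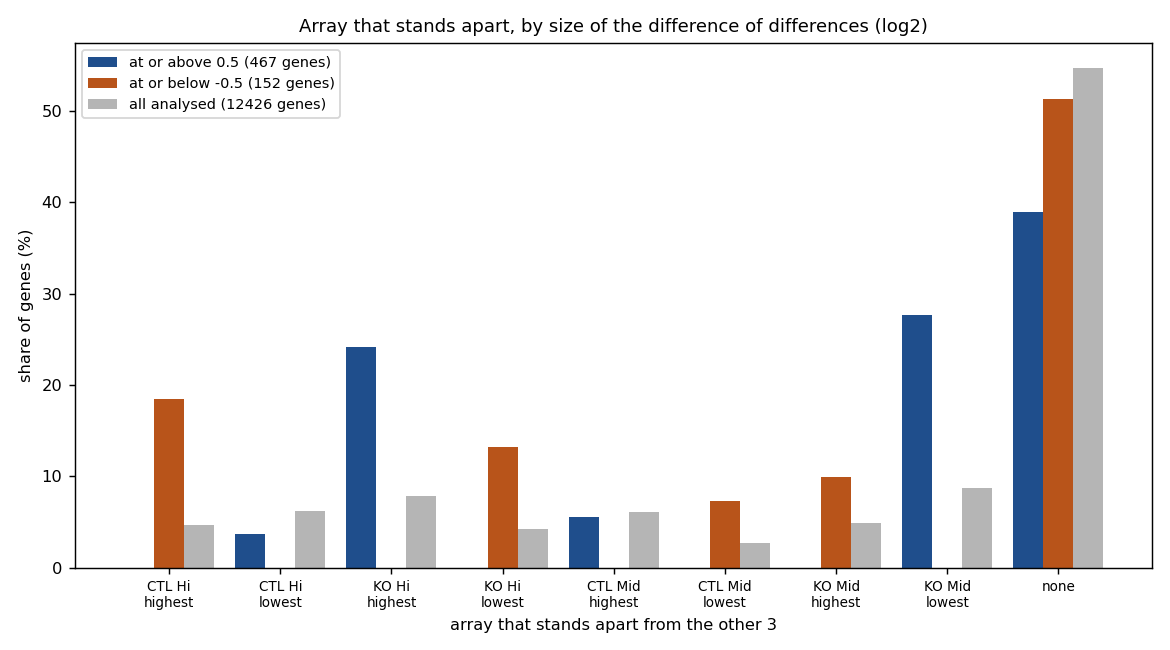
Share of genes (%, vertical) in which 1 named array stands apart from the other 3 as highest or lowest (horizontal), for genes at or above 0.5, genes at or below -0.5 and all analysed genes. In the first set KO Lgr5-Hi as the highest (24.2%) and KO Lgr5-Mid as the lowest (27.6%) exceed the other arrays.

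The genes of ER protein folding and disposal held the top value of the whole comparison. Derl3 encodes a derlin of ER-associated degradation and is a target of the unfolded protein response. It read 7.34, 11.06, 6.88 and 8.56, a difference of differences of 2.04. Both KO arrays were above both CTL arrays, and KO Lgr5-Hi was far above the rest. The Derl3 promoter window from RefSeq (GRCm38.p6) holds an ER stress response element, the composite of CCAAT, a gap of 9 bases and CCACG that Atf6 and NF-Y are known to bind. The same element lies upstream of Creld2, an ER chaperone-like protein, which is transcribed away from Alg12 over a shared promoter. The 250 bases before each gene's start are shown because these are the ER genes with the highest values, on the gene's strand with the element, which reads on the other strand, in capitals.
Derl3 chr10:75893148-75893397, plus strand: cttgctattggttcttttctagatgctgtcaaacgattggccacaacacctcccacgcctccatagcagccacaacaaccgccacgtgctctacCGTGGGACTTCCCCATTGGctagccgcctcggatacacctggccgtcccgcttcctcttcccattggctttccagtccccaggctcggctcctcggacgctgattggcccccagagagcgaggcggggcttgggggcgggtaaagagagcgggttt
Creld2 chr15:88819396-88819645, plus strand: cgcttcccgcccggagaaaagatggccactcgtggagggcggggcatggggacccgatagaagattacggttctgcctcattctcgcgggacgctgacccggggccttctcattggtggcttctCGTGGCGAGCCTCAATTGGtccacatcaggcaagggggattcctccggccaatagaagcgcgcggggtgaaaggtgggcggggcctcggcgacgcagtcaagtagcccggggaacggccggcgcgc

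Creld2 read 10.12, 11.73, 9.68 and 10.19, a difference of differences of 1.10. Next came the ubiquitin ligase of the ER membrane, Syvn1, with 9.74, 10.64, 9.37 and 9.31, and 0.97. Its partner Sel1l came to 0.87. In these 3 genes KO Lgr5-Hi stood above the other arrays, and the KO and CTL arrays of Lgr5-Mid lay close together for Syvn1 and Sel1l. Dnajc3, a co-chaperone that also restrains Perk, read 9.55, 10.54, 9.08 and 9.23, and came to 0.84. The abundant chaperones were less uneven between the fractions: Hspa5, the ER chaperone BiP, read 12.48, 13.09, 12.14 and 12.39 and came to 0.36, and Hsp90b1 came to 0.35. Both KO arrays of Hspa5 were above the CTL array of the same fraction.

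As lists, the 23 of 24 ER chaperones and co-chaperones that were analysed had a median of 0.27, 22 (95.7%) above 0 and 6 (26.1%) at or above 0.5. The 25 of 27 genes of ER-associated degradation had a median of 0.25, all above 0 and 6 (24%) at or above 0.5. Over all analysed genes the shares were 59.9% and 3.76%. KO Lgr5-Hi was the highest array in 20 of the 23 and in 21 of the 25. Disulfide isomerases and oxidases were mixed. Their 19 analysed members had a median of 0.09, which turns to -0.02 when arrays are centred; Pdia4 (0.78), Erp29 (0.77) and Ero1b (0.72) lay at one end and Qsox1 (-0.35) at the other. Among 14 analysed sensors and transcription factors of the unfolded protein response the median was 0.32. KO Lgr5-Mid was the lowest array in 13 of the 14 (92.9%), against 8 of the 23 chaperones and 8 of the 25 degradation genes, and KO Lgr5-Hi the highest in 10. The median KO minus CTL difference of this list was 0.08 in Lgr5-Hi, and CTL minus KO was 0.19 in Lgr5-Mid, so that the Lgr5-Mid arrays gave the larger part. Atf6 read 9.01, 9.62, 8.63 and 8.45 and came to 0.79, with KO Lgr5-Hi standing apart as the highest. The sensors Ern1 (0.36) and Eif2ak3 (0.31) and the factor Xbp1 (0.34) were lower; the array measures the gene's RNA and not its spliced form.

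The 81 analysed members of these 4 lists together had a median of 0.26, against 0.05 over all analysed genes, and 20 of them (24.7%) were at or above 0.5, against 3.76%. KO Lgr5-Hi was the highest array in 62 of 81 (76.5%), against 26.8% of all analysed genes. The median deviation of the 81 from each gene's own mean was 0.02, 0.31, -0.15 and -0.19. These lists had been chosen with earlier results of these arrays known, so the counts describe them and give no independent support.

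The ER stress response element (letters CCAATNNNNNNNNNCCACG, searched on both strands from 250 bases before to 50 after each start) was found in 39 of 32851 promoter windows (0.119%) and in 17 of 9935 analysed genes that have a window (0.171%). It was in 10 of 67 genes of the 4 ER lists (14.9%). Of the 16 such genes at or above 0.5 it was in 6 (37.5%), and of the 51 below 0.5 in 4 (7.84%). The sites of those 6 and of Hspa5 are given next, read 5′ to 3′ along the element with its fixed bases in capitals, to show the bases of the gap, which the search left free.
Derl3 chr10:75893242-75893260: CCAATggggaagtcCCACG
Creld2 chr15:88819520-88819538: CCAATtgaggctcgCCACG
Syvn1 chr19:6046532-6046550: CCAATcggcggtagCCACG
Dnajc3 chr14:118937827-118937845: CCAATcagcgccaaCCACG
Ero1b chr13:12565682-12565700: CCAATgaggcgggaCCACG
Pdia6 chr12:17266491-17266509: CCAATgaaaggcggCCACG
Hspa5 chr2:34772025-34772043: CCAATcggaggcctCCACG
The Creld2 site is also the Alg12 site, read from the other gene's side. Alg12, a mannosyltransferase of N-glycan assembly, read 9.04, 9.48, 8.78 and 8.78 and came to 0.43, so the genes on both sides of that promoter had KO Lgr5-Hi as their highest array.

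The 17 analysed genes with the element had a median difference of differences of 0.36, with 16 above 0 and 7 (41.2%) at or above 0.5. Over all analysed genes the shares were 59.9% and 3.76%. Of the 17 genes, 10 belong to the 4 ER lists, as do 6 of the 7. These shares therefore give no support apart from those lists, which were chosen with earlier results known. The seventh was Zfp57, a zinc finger protein outside the ER lists, at 0.54 with only KO Lgr5-Hi above the floor. The related short element ATTGGNCCACG was in 12 windows in all (0.0365%) and in 9 analysed genes, among them Herpud1 (0.73) and Dnajb11 (0.43). The element TGACGTGG, which Xbp1 and Atf6 can bind, was in 113 analysed genes, 9 of them (7.96%) at or above 0.5. Within the ER lists it was in 0 of the 16 members with a window at or above 0.5 and in 5 of the 51 below, the opposite order to the first element. A match describes the letters in a window; it does not show that a factor is bound there or acts on the gene.

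Genes of entry into the ER, N-glycosylation and vesicle transport also had KO Lgr5-Hi as the highest array in most members. Their list medians were below the 0.26 of the 4 ER lists together. The lowest array was less uniform: for N-glycosylation the median deviation was -0.11 in CTL Lgr5-Mid and -0.07 in KO Lgr5-Mid. The 22 analysed genes of the translocon, signal peptidase and signal recognition had a median of 0.22. Of these, 18 (81.8%) were above 0 and 0 at or above 0.5, against 59.9% and 3.76% of all analysed genes. For N-glycosylation the median of 32 genes was 0.15. Gfpt1, the first enzyme of the hexosamine pathway that supplies the sugar donor, read 9.90, 10.36, 9.27 and 8.92 and came to 0.81. The 34 analysed genes of COPII vesicles and ER to Golgi transport had a median of 0.20, with the cargo receptor subunit Mcfd2 (0.88) and the coat subunits Sec24d (0.76) and Sec23a (0.67) on top. COPI and Golgi genes had a median of 0.21 over 22, with the Golgi stacking protein Gorasp1 at 0.79. By contrast the 20 analysed heat shock proteins of cytosol and mitochondria had a median of -0.02, 10 (50%) above 0 and 0 past 0.5.

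All 17 analysed effectors of the integrated stress response had values above 0, with a median of 0.29 and 5 (29.4%) at or above 0.5. Over all analysed genes 59.9% were above 0 and 3.76% at or above 0.5. Chac1, a glutathione-degrading enzyme controlled by Atf4, read 7.80, 8.95, 7.31 and 7.39, a difference of differences of 1.08. KO Lgr5-Hi was well above the other arrays and the Lgr5-Mid pair lay together. Trib3 and Sesn2, a pseudokinase and a leucine sensor induced in the same response, came to 0.71 and 0.73. Atf4 itself came to 0.25 and Ddit3, which encodes Chop, to 0.26; both are controlled after transcription too, which an array does not see. Nupr1, a small stress-induced chromatin protein, read 9.57, 10.25, 8.53 and 8.31 and came to 0.91.

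Slc7a11, the cystine transporter and a target of both Atf4 and Nrf2, had the third largest value, 1.57, from 5.38, 7.24, 5.22 and 5.51. Only KO Lgr5-Hi was above the floor, so the size of that value is uncertain and it came to 0.95 with the other arrays raised to their floors. The 18 analysed Atf4 targets of amino acid transport and synthesis had a median of 0.15, from Slc7a11 down to Phgdh at -0.49, the first enzyme of serine synthesis. Cytosolic aminoacyl-tRNA synthetases were uniform: 17 of 18 (94.4%) above 0, against 59.9% of all analysed genes, 0 at or above 0.5, and a median of 0.20. Niban1, a stress-induced protein, read 5.89, 7.51, 5.66 and 6.08 and came to 1.20, again with KO Lgr5-Hi as the only array above the floor. The Atf4 composite letters TGATGNAA were in 8 of 29 windows of the stress response and amino acid lists (27.6%), namely Slc7a11, Chac1, Nupr1, Trib3, Atf3, Vldlr, Asns and Slc1a4, against 2.57% of analysed genes and 3.97% of all windows; the last 4 of these genes had values of 0.24, 0.10, 0.08 and -0.02.

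**Figure D3:**
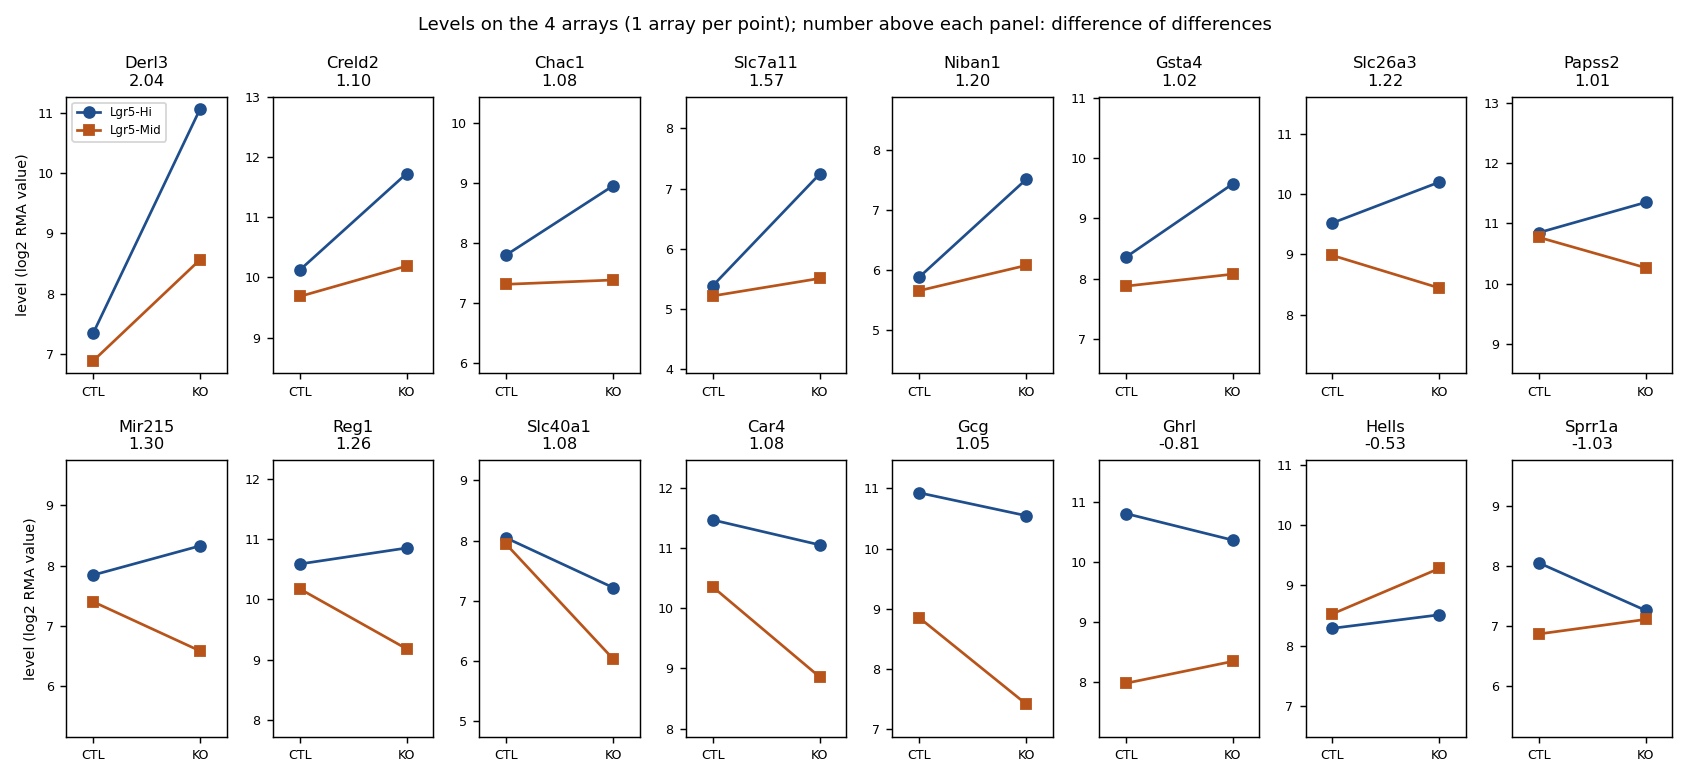
Level (log2, vertical, each panel spanning the same range) of 16 genes on the 4 arrays, with CTL and KO joined within Lgr5-Hi (circles) and Lgr5-Mid (squares); the number is the difference of differences. The upper row shows genes such as Derl3 (2.04) with KO Lgr5-Hi highest, and most of the lower row genes such as Slc40a1 (1.08) with KO Lgr5-Mid lowest.

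Zinc genes lay mostly above 0, with a median of 0.31 over 23 and 18 (78.3%) above 0, against 59.9% of all analysed genes. The surface importer Slc39a4 read 10.28, 10.42, 10.23 and 9.61 and came to 0.76, with KO Lgr5-Mid standing apart as the lowest. Slc39a10, another importer, came to 0.52 and Slc39a7 to 0.49. The metallothioneins Mt1 (-0.02) and Mt2 (-0.05), which follow free cytosolic zinc, were near 0, and Slc30a2, the exporter of Paneth granules, came to -0.21.

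Enzymes of detoxification held both patterns. The 34 of 40 analysed had a median of 0.42. Of these, 31 (91.2%) were above 0 and 11 (32.4%) at or above 0.5, against 59.9% and 3.76% of all analysed genes. KO Lgr5-Hi was highest in 26 (76.5%) and KO Lgr5-Mid lowest in 22 (64.7%), against 26.8% and 30.1%. Gsta4, a glutathione transferase for lipid aldehydes, read 8.35, 9.57, 7.88 and 8.07 and came to 1.02, with KO Lgr5-Hi alone high. Ces2a, a carboxylesterase, read 8.65, 9.02, 8.53 and 7.73 and came to 1.17, with KO Lgr5-Mid alone low. Among 20 analysed Nrf2 targets the median was 0.15, with 17 (85%) above 0. Slc7a11, Gsta4, Nqo1 (0.94) and Osgin1 (0.75) were at or above 0.5. Gclc came to 0.19, while Gclm (-0.08), Txnrd1 (0.05) and Hmox1 (-0.07) were near 0. For Hmox1, KO Lgr5-Mid was below its floor.

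Genes of absorptive enterocytes formed the other large block, and here the low array was KO Lgr5-Mid. Slc7a9, which takes up cystine and basic amino acids, read 8.80, 9.11, 8.77 and 7.89 and came to 1.19. The sodium-proton exchanger Slc9a3 read 9.0, 8.83, 8.90 and 7.72 and came to 1.01. In both, 3 arrays lay close together and KO Lgr5-Mid below them. Slc13a1, a sodium-sulfate cotransporter, read 9.0, 9.81, 8.11 and 7.69 and came to 1.23, with KO Lgr5-Hi high as well. Alpi, the intestinal alkaline phosphatase of the brush border, came to 0.98 and the aminopeptidase Enpep to 0.96.

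Slc40a1, ferroportin, the iron exporter of enterocytes, read 8.04, 7.22, 7.94 and 6.04, a value of 1.08. Both KO arrays were below both CTL arrays, and KO Lgr5-Mid was below its floor, so with that array raised to the floor the value was 0.96. Its ferroxidase partner Heph came to 0.66 and the iron reductase Cybrd1, at the other end, to -0.51 from 6.87, 6.35, 6.25 and 6.24, all near the floor.

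The solute transport list had 27 genes, all analysed, with a median of 0.46. Above 0 were 25 (92.6%), against 59.9% of all analysed genes, with 11 (40.7%) at or above 0.5 and 5 at or above 1. For brush border and digestion the median was 0.34 over 26, all above 0. For lipid absorption and lipoproteins it was 0.42 over 26, all above 0, with the sterol exporter Abcg5 (0.86) and the apolipoprotein B editing enzyme Apobec1 (0.84) on top and the fatty acid binding protein Fabp2 (0.11) lowest. Ileal genes of bile acid and cobalamin uptake had a median of 0.50 over 10. The ileal bile acid binding protein Fabp6 read 8.97, 8.14, 8.93 and 7.16 and came to 0.94, while the hormone gene Fgf15, which bile acids induce, came to -0.30. Together the 89 analysed enterocyte and ileal genes had a median of 0.42 with 35 (39.3%) at or above 0.5, against 0.05 and 3.76% over all analysed genes. KO Lgr5-Mid was the lowest array in 73 of them (82.0%), against 30.1% of all analysed genes. In bulk RNA of sorted cells, fewer cells of a type and less RNA of that type in each cell cannot be told apart.

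The letters CAAAGTCCA, a form of the site of the enterocyte factor Hnf4a, were in 4 of 73 windows of these genes (5.48%), those of Alpi, Slc3a1, Treh and Pdzk1, against 0.604% of analysed genes and 0.475% of all windows. The 60 analysed genes with it had a median of 0.19, and 11 (18.3%) were at or above 0.5, against 0.05 and 3.76% over all analysed genes. Hnf4a itself came to 0.05 and its relative Hnf4g to 0.38; the nuclear receptors Nr1i3 (0.64), Nr1h3 (0.56) and Nr1i2 (0.43) led the 19 analysed intestinal transcription factors, whose median was 0.15.

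**Figure D4:**
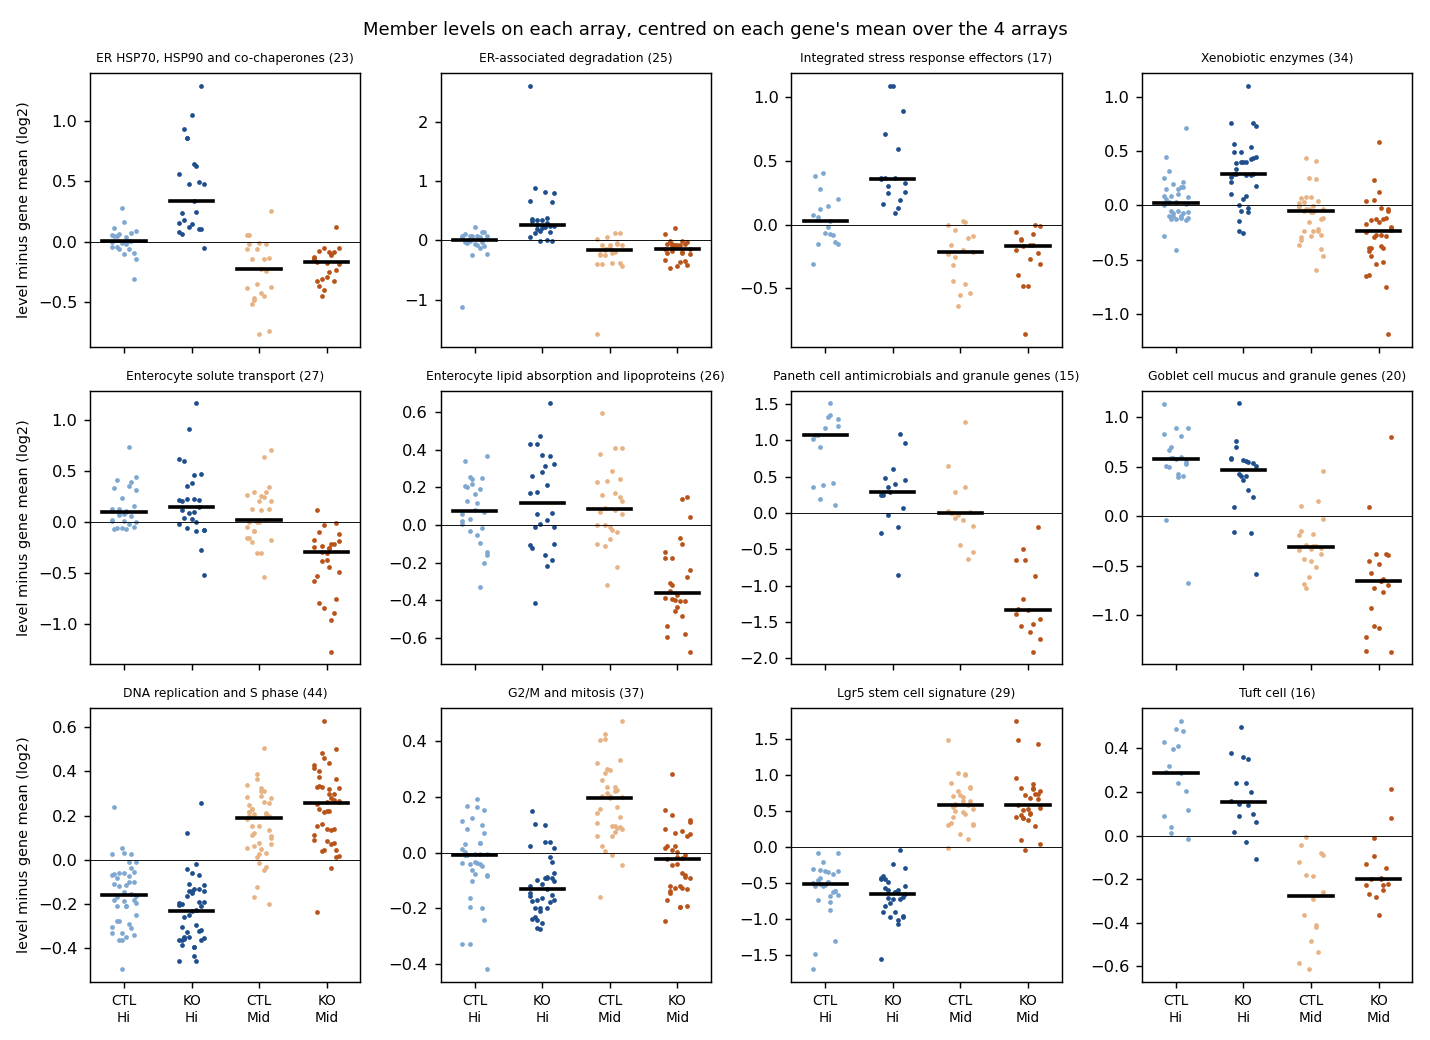
Level of each member minus its own mean over the 4 arrays (log2, vertical) on each array (horizontal) for 12 gene lists, with a bar at the median. ER and stress lists peak in KO Lgr5-Hi, with a bar at 0.33 for ER chaperones, and enterocyte and Paneth lists have their lowest bar in KO Lgr5-Mid, at -1.34 for Paneth genes.

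Paneth cell genes had the highest list median, 0.57 over 15 of 18. All 15 were above 0 and 11 (73.3%) at or above 0.5, against 59.9% and 3.76% of all analysed genes. KO Lgr5-Mid was the lowest array in all 15, against 30.1% of all analysed genes. The median KO minus CTL difference of this list was -0.59 in Lgr5-Hi, and CTL minus KO was 1.28 in Lgr5-Mid. By these medians KO was below CTL in both fractions, and further below in Lgr5-Mid. Clps, a colipase expressed by Paneth cells, read 12.63, 12.04, 11.56 and 10.01 and came to 0.96. Reg4, a secreted lectin of deep crypt secretory and endocrine cells, came to 0.87. Lysozyme, Lyz1, read 13.94, 13.84, 13.61 and 12.94 and came to 0.57; its top values are near the upper end of what the array read (14.6), where a difference can be compressed. The 6 alpha-defensin probe sets that name several genes, and so enter no list, ran from 0.06 to 0.45 with a median of 0.10. Reg1, another lectin of the family and outside the lists, read 10.59, 10.85, 10.18 and 9.18 and came to 1.26.

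Goblet cells gave a split list, with a median of 0.21 and a range from -0.41 to 0.96. Above 0 were 12 of 20 (60%), near the 59.9% of all analysed genes. At or above 0.5 were 5 (25%), against 3.76% of all analysed genes. KO Lgr5-Mid was the lowest array in 16 (80%), against 30.1%. Some products were high. Muc2, the secreted gel mucin, read 13.03, 12.79, 12.01 and 10.98 and came to 0.79; Spink4 came to 0.96 and Clca1 to 0.83. Tff3, the trefoil peptide secreted with the mucins, came to only 0.08. The lowest member was Gcnt3, a glycosyltransferase that branches mucin sugars, at -0.41. The factors Spdef (-0.25), Creb3l1 (-0.18), Foxa3 (-0.10) and Atoh1 (-0.09) were also below 0. For Muc2 the low array was again KO Lgr5-Mid, whereas Spdef was close to level between the Lgr5-Mid arrays (8.49, 8.17, 7.64 and 7.57). The transcription factor Bhlha15, Mist1, which builds up the secretory apparatus, came to 0.91 outside the lists; it is named with its value known.

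Enteroendocrine hormones went both ways. Gcg, the proglucagon gene of L cells, read 10.93, 10.55, 8.85 and 7.42 and came to 1.05, with KO Lgr5-Mid the lowest array. Ghrl, which encodes ghrelin, read 10.81, 10.36, 7.99 and 8.35 and came to -0.81, with CTL Lgr5-Mid the lowest. Mboat4, the acyltransferase that activates ghrelin, read 6.71, 6.34, 5.99 and 6.37 and came to -0.74, with CTL Lgr5-Mid below its floor. The list of 20 had a median of -0.02, with 8 (40%) above 0, against 59.9% of all analysed genes. Among 11 analysed endocrine transcription factors 3 (27.3%) were above 0 and the median was -0.17. Insm1 read 9.23, 8.60, 7.90 and 7.97 and came to -0.70. Neurog3, which commits progenitors to the lineage, came to -0.34.

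Tuft cell genes had the lowest median of the lists with over 1 analysed gene, -0.24 over 16. Above 0 were 3 (18.8%), against 59.9% of all analysed genes. Sh2d6 read 9.69, 9.41, 8.68 and 9.06 and came to -0.66. The taste channel Trpm5 came to -0.56 and the kinase Dclk1, read at 9.01, 8.96, 8.0 and 8.35, to -0.41. In Sh2d6 and Dclk1 the KO array was above the CTL array in Lgr5-Mid and below it in Lgr5-Hi. Spib, a factor of M cells and tuft cells, came to -0.69. The median of the receptor genes was itself -0.12, but at a median level of 4.79, against 7.49 for the tuft genes. Among the 3106 analysed genes of the level group nearest the tuft genes, with a median level of 7.51, the median was 0.06.

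The Lgr5 stem cell signature lay slightly below 0, with a median of -0.13 over 29. Above 0 were 8 (27.6%), against 59.9% of all analysed genes. Fstl1, a secreted follistatin-like protein, had the lowest value, -0.91, from 5.42, 5.48, 5.91 and 6.88, and only KO Lgr5-Mid was above the floor. Olfm4, a marker of crypt base cells, read 12.88, 12.68, 13.53 and 13.75 and came to -0.42. Cdca7 came to -0.40, Lgr5 to -0.13 and Ascl2, the Wnt-dependent stem cell factor, to 0.01. Wnt targets had a median of -0.01 over 12, and Notch genes -0.07 over 20, from Numb (0.41) to Hes5 (-0.51). In the list of reserve and regenerative markers, with a median of 0.02 that turns negative on centring, the growth factor Ereg stood out at 0.99 from 6.47, 7.33, 6.77 and 6.64, just short of the size of 1.

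Cell cycle genes divided by phase. Of 44 analysed genes of DNA replication and S phase 9 (20.5%) were above 0, against 59.9% of all analysed genes, and the median was -0.17. Hells, a chromatin remodeller of replicating cells, read 8.29, 8.51, 8.52 and 9.28 and came to -0.53, with KO Lgr5-Mid standing apart as the highest. The ribonucleotide reductase subunit Rrm1 came to -0.41 from 10.39, 10.20, 10.71 and 10.93. Of 37 genes of G2/M and mitosis 28 (75.7%) were above 0. Their median was 0.08, near the 0.05 of all analysed genes. It turns to -0.03 when arrays are centred and to -0.00493 once the trend with level is removed. Psrc1, a spindle protein, led at 0.61 and the proliferation marker Mki67 was lowest at -0.20. The S phase median was below 0 under each scaling tried. Ribosome biogenesis (0.01 over 29), ribosomal protein (0.04 over 27) and oxidative phosphorylation genes (0.05 over 28) had medians close to that of all genes, and all of these medians turn negative on centring.

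**Figure D5:**
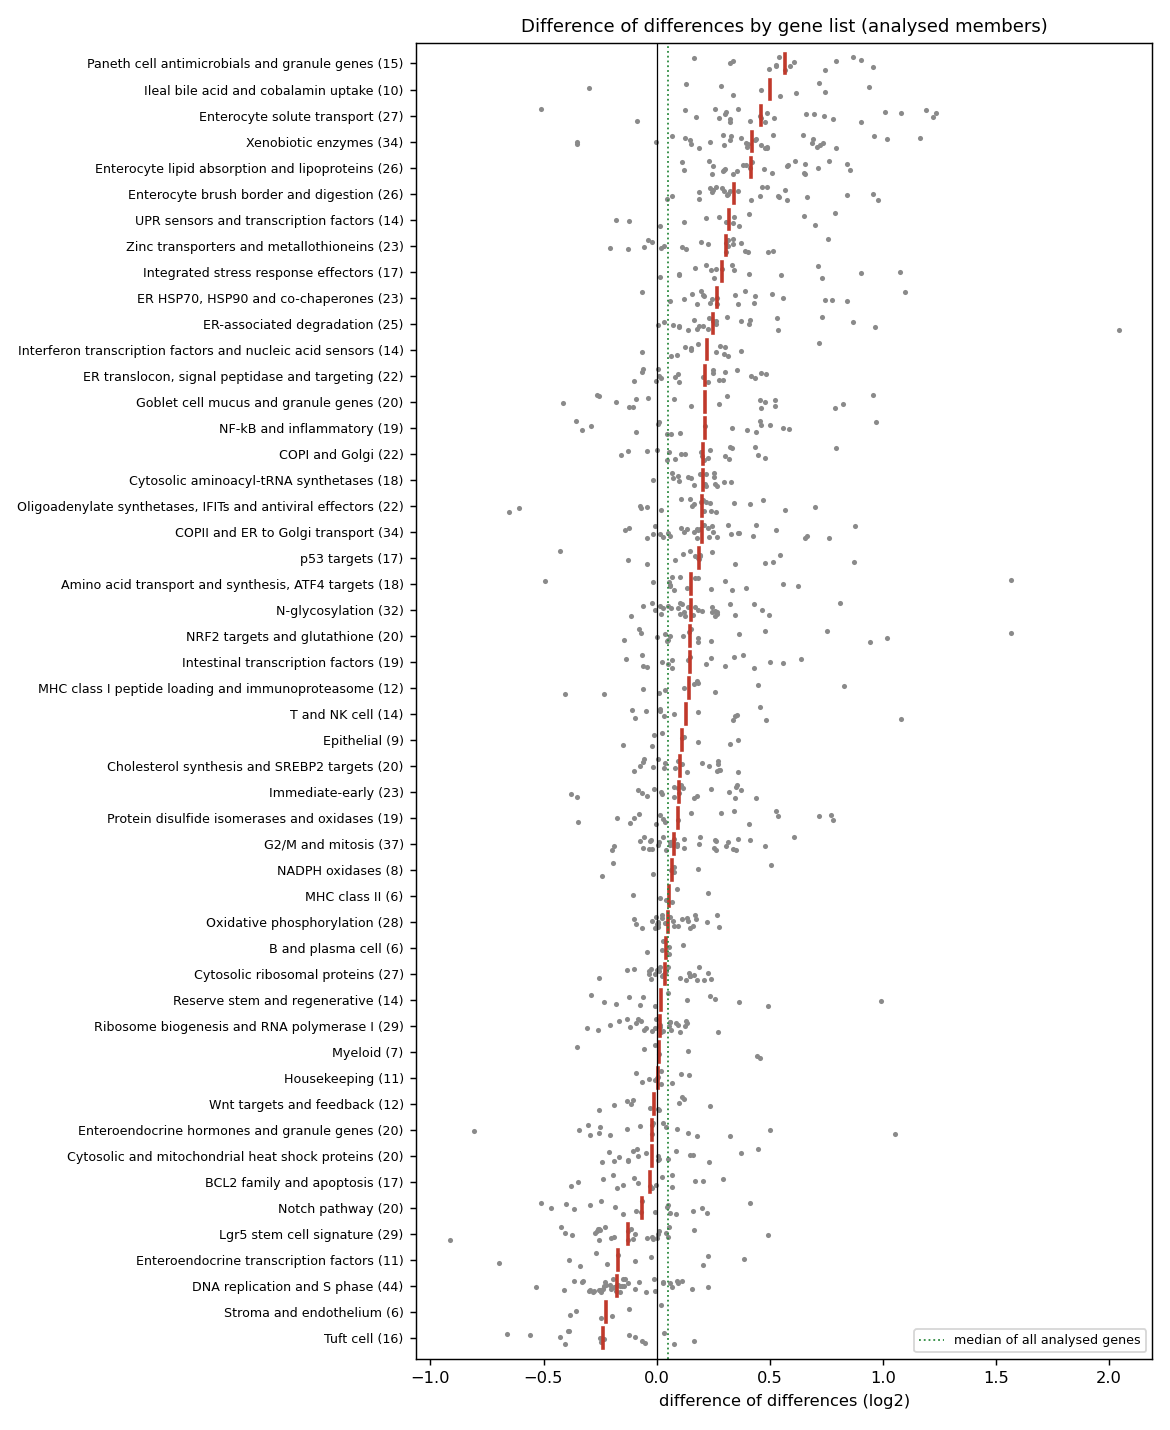
Difference of differences (log2, horizontal) of the analysed members of each gene list with at least 6 of them (points), with the list median (red bar) and the median of all analysed genes (dotted, 0.05). Lists run from tuft cell genes (-0.24) to Paneth cell genes (0.57).

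Genes of the interferon response were mostly above 0. Among 22 analysed antiviral effectors 17 were above 0 and the median was 0.20, and among 14 interferon transcription factors and nucleic acid sensors 13 were above 0 with a median of 0.22, against 59.9% and 0.05 over all analysed genes. Of the effectors, Usp18 (0.70) and Herc6 (0.57) were at or above 0.5, and Oas1a (-0.65) and Oas2 (-0.61) at or below -0.5. Oas1a read 7.76, 6.45, 7.72 and 7.07, and Irf7, a factor that amplifies interferon, 9.62, 8.50, 9.40 and 7.56. In both genes each KO array was below both CTL arrays, but the lower of the KO arrays was Lgr5-Hi for Oas1a and Lgr5-Mid for Irf7, which came to 0.72. Gzmb, the granzyme of cytotoxic lymphocytes, read 8.33, 6.86, 9.16 and 6.61 and came to 1.08. Of 22 T and NK cell markers 14 were analysed, with a median of 0.13; their mean level was 7.22, 6.54, 7.55 and 6.64, and Cd3d, Cd4, Cd2, Klrd1, Klre1, Zap70 and Thy1 were below the floor on every array. The part of lymphocytes in these values was not tested.

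Lists of cell death, inflammation and other stress pathways lay nearer the middle. The 17 analysed genes of the BCL2 family and apoptosis had a median of -0.03, 6 (35.3%) above 0 and 0 past 0.5. Of 17 p53 targets 14 (82.4%) were above 0, against 59.9% of all analysed genes, with a median of 0.19. Gadd45a, a growth arrest gene that p53 and Atf4 can both induce, read 8.66, 9.30, 8.47 and 8.23 and came to 0.88, with KO Lgr5-Hi standing apart as the highest. Among 19 inflammatory genes of the NF-kB pathway the median was 0.21, which became 0.33 with all probe sets averaged and 0.10 among genes above the floor on all arrays. The cytokine Il18 led them at 0.97 from 7.76, 7.98, 7.58 and 6.83, with KO Lgr5-Mid the lowest. Genes of MHC class I peptide loading had a median of 0.14 over 12, from the tapasin relative Tapbpl (0.83) to the transactivator Nlrc5 (-0.40). Cholesterol synthesis (0.10 over 20), immediate-early genes (0.10 over 23), NADPH oxidases (0.07 over 8) and MHC class II (0.06 over 6) had medians that turn negative on centring.

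Of the 40 genes at or above 1, 27 belonged to none of the lists. Papss2, which makes the sulfate donor, read 10.85, 11.35, 10.77 and 10.26 and came to 1.01. Slc26a3, the chloride-bicarbonate exchanger of the solute list, read 9.52, 10.20, 8.98 and 8.44 and came to 1.22. In both, KO was above CTL in Lgr5-Hi and below it in Lgr5-Mid by at least 0.5, a crossing seen in 6 analysed genes in all. The sulfotransferase Sult6b2 (1.49) and the acetyltransferase Nat8f5 (1.44) were high in KO Lgr5-Hi. Car4, a membrane carbonic anhydrase, read 11.47, 11.05, 10.36 and 8.86 and came to 1.08. Efnb2, an ephrin ligand, read 8.34, 9.20, 7.54 and 7.38 and came to 1.02. Around the size of 1, Tubal3 (1.0) and Angptl8 (1.0) lay just inside and Ereg (0.99) and Alpi (0.98) just outside, so the count is one of position along a continuous range.

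Of the same 40 genes, 32 were above the floor on all 4 arrays. In 20 the KO level was above CTL in Lgr5-Hi and below CTL in Lgr5-Mid. The larger of the parts came from Lgr5-Hi in 24 and from Lgr5-Mid in 16. On the negative side the 4 genes were Gm5592, Serpina1c, Sprr1a and Gm10139, and Gm5592 and Serpina1c came from levels mostly below the floor. Sprr1a, a cornified envelope protein that epithelia make under stress, read 8.05, 7.26, 6.87 and 7.11 and came to -1.03, with CTL Lgr5-Hi standing apart as the highest. Gm10139, a predicted gene, came to -1.03, with KO Lgr5-Mid the highest. The next on that side, Mir680-2 and 1700054O19Rik, both came to -0.96.

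A single microRNA gene was among the 40. Mir215 read 7.84, 8.33, 7.40 and 6.58 and came to 1.30. KO Lgr5-Mid was the lowest array and KO Lgr5-Hi the highest. The array reads the precursor region of the transcript and not the mature microRNA. Mir194-1, its neighbour on chromosome 1, came to 0.36, whereas the related pair on chromosome 19, Mir192 and Mir194-2, came to -0.12 and -0.26; these 3 genes were named with their values known. The mature sequences (RefSeq) are shown because miR-215-5p and miR-192-5p, from different chromosomes, share a seed (bases 2 to 8, in capitals).
miR-215-5p: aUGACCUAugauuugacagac
miR-192-5p: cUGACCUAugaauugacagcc
miR-194-5p: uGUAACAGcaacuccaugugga
As a class the 77 analysed microRNA genes had a median of -0.22, with 11 above 0, against 59.9% of all analysed genes. At or above 0.5 was 1 (1.30%) and at or below -0.5 were 10 (12.99%), against 3.76% and 1.22% of all analysed genes. Their median level was 7.10, against 8.03 over all analysed genes. The level groups on either side, with median levels of 6.46 and 7.51, had medians of -0.06 and 0.06. In these groups 3.15% and 1.03% of genes were at or below -0.5.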

How the data were processed

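The authors deposited log2 values made with RMA, per the submitters' processing notes, as 1 value table of 35557 probe sets on 4 arrays of total RNA; software version and annotation: not given in the sources used here, and the base of the log was read from the range of the values (3.08 to 14.6). RMA usually equalises the distributions of the arrays, but the deposited ones are not identical: the medians over all probe sets were 6.43, 6.44, 6.34 and 6.45 (CTL and KO Lgr5-Hi, then CTL and KO Lgr5-Mid), so scaling was varied. Of the probe sets, 21789 carry 1 gene symbol, 1621 several and 12147 none in the annotation table used here; only the first were used, and each gene took the brightest of its probe sets, by mean. Genes not above the floor, percentile 95 of 1205 chemoreceptor genes on that array, on any array were left out (6307), as were the receptor genes. The difference of differences was then taken with no test, since each group is 1 array. Symbols of 12391 of 12426 analysed genes matched RefSeq, which also gave promoter windows and microRNA sequences.

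Genes named were drawn from the 30 highest and 30 lowest, and per list from its 3 largest and largest opposite value and its first 4 members. They were also drawn from the 6 crossing genes, those beside the size of 1, and checks of identity. Only a part of the genes that meet this rule is named. Outside that rule, and with their values known, were named Alg12, Atf3, Atoh1, Bhlha15, Cdca7, Dnajb11, Efnb2, Fabp2, Foxa3, Heph, Herc6, Mir192, Mir194-1, Mir194-2, Mt1, Mt2, Nr1i2, Osgin1, Pdia6, Pdzk1, Slc1a4, Slc3a1, Slc9a3, Spdef, Treh, Trib3, Txnrd1, Vldlr, Xbp1 and Zfp57. The members and lists were chosen with earlier results of these data known. Alternatives changed gene level, filter, floor, scaling, trend with level and size. Scripts (Python 3.11.15, pandas 2.3.3, numpy 2.4.6, statsmodels 0.14.6) were tested on simulated data.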

Additional observations from a re-analysis of the deposited data

Results flagged for a closer look

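In 6 genes the KO array was above the CTL array by at least 0.5 in Lgr5-Hi and below it by at least 0.5 in Lgr5-Mid, so the genotype difference had opposite signs in the fractions. The differences were not tested, since each group is 1 array. For 4 of them all arrays were above the floor: Slc26a3 had a difference of differences of 1.22, Tmem253, a membrane protein, 1.05, Themis3, a relative of a thymocyte signalling protein, 1.04, and Papss2 1.01. In Bcl2l15, a relative of the BCL2 family, the value was 1.59 (7.07, 8.08, 6.28 and 5.70), and with KO Lgr5-Mid raised to the floor it was 1.14. In Ptpn22, a tyrosine phosphatase of lymphocytes, it was 1.43 (6.35, 7.08, 6.31 and 5.60) and with that array raised 0.88.

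Probe sets that name several genes enter no list and no count of the report. Among the 1154 of them above the floor on some array, 3 (0.26%) were at or above 1 and 2 (0.173%) at or below -1. Over all analysed genes the shares were 0.322% and 0.0322%. Probe sets with no gene in the annotation used here were left out too. Of these, 5876 were above the floor on some array, with 131 (2.23%) at or above 1 and 169 (2.88%) at or below -1. Their SD was 0.473, against 0.243 over analysed genes. The excess of positive values among analysed genes past 1 was thus not seen there.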

How the results depend on the processing

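No paired analysis was possible because each group is 1 array. Of the 40 genes at or above 1, 26 remained after quantile normalisation (27 in all), 24 after removal of the trend with level (25 in all), 16 after centring (16 in all), 35 with values below the floor raised to it and 32 among genes above the floor on all arrays. The 4 genes at or below -1 became 8 after centring, 2 with values below the floor raised to it, 2 among genes above the floor on all arrays and 2 with the floor at percentile 99. At the smaller size, a ratio of ratios of 1.5, counts were 290 and 58. Centring on the medians of the analysed genes lowers each value by 0.112 by construction. It turned 14 of 52 list medians from above to below 0. These were cholesterol synthesis (to -0.0101), immediate-early (to -0.0117), epithelial (to -0.000137), disulfide isomerases (to -0.018), NADPH oxidases (to -0.042), MHC class II (to -0.057), B and plasma cell (to -0.069), myeloid (to -0.103), reserve stem (to -0.091), G2/M (to -0.034), ribosome biogenesis (to -0.097), ribosomal proteins (to -0.076), oxidative phosphorylation (to -0.063) and housekeeping genes (to -0.106). Raising values to the floor turned that of sex-linked genes (to -0.0965). Relative to the median of all genes under the same setting, 394 values of list medians moved by less than 0.1. By more moved 15, in lists of at most 20 analysed genes. Not in these counts are 4 values that changed sign from a median of at least 0.1. They were cholesterol synthesis, immediate-early and epithelial genes on centring, and sex-linked genes with values raised to the floor. Centring moves no list median relative to all genes, by construction. The NADPH oxidase median became -0.0724 without a filter. With genes above the floor on all arrays, T and NK cell genes came to 0.261, goblet genes to 0.115 and NF-kB genes to 0.104. With the floor at percentile 99, T and NK cell genes came to 0.261, myeloid to 0.219, stroma to -0.302 and NF-kB genes to 0.104. Stroma came to -0.102 without a filter, and NF-kB genes to 0.334 with all probe sets averaged. Quantile normalisation gave 0.0959 for myeloid and -0.17 for the single red blood cell gene, and removal of the trend 0.0689 for myeloid, -0.193 for red blood cell and 0.179 for sex-linked genes. Where values moved without a construction that shows why, the cause was not tested. Of named genes' values 2946 moved by less than the receptor genes' SD of 0.241 and 17 by more. Of the 17, 16 came with values raised to the floor. Many of the 2946 could not move by more. Settings that only change which genes are kept leave a gene's value as it is, and centring shifts each by 0.112. The count therefore does not measure how stable the values are. The tolerances of 0.1 and 0.241 were set after the values were seen. Signal near the floor limits the values of low genes.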
